A study of Mus musculus with 6 samples.

Results

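The RNAs described here are those transcribed from mitochondrial DNA. Members were all genes of the count table whose symbol begins with mt-, after each Ensembl identifier had been paired with its symbol, which gave 37 of 53465 genes. They are 13 protein genes, 2 rRNA genes and 22 tRNA genes. Of these, 34 had enough counts for the test between groups, and the 3 without were all tRNA genes.

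RNA-seq had been done on metaphase II (M II) oocytes of naturally aged Kunming (KM) mice, 9-10 months old, to ask how the flavonoid quercetin changes the transcriptome of oocytes matured in culture. In the control group oocytes underwent in vitro maturation (IVM) for 16 h without quercetin, and in the quercetin group for 16 h with 10 μM quercetin. Both groups were from females of the same strain and age, and each consisted of 3 pools, every pool holding 15 oocytes taken from 3 mice. A value is therefore an average over pooled oocytes and animals, and p-values measure the spread between these pools. The labels do not say whether the pools came from different mice. Reads counted on genes numbered 8671210, 7880467 and 8905681 without quercetin, and 8465142, 9938743 and 8109613 with it.

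Markers fitted the label of the cells. All 10 oocyte markers examined were counted, and their summed level was 24170, 27152 and 25844 CPM (counts relative to the total of the pool, after scaling by edgeR's TMM method) in controls and 27489, 29441 and 25278 CPM with quercetin, with *Dppa3* the most abundant. The sum does not show the spread of single markers between pools. *Zp2* had 1990, 12980 and 5601 counts in controls and 1045, 7734 and 11260 with quercetin. The 12 markers of cumulus and granulosa cells, which surround the oocyte, summed to 81.0, 69.1 and 84.8 CPM in controls and 95.3, 95.2 and 89.1 CPM with quercetin. Among these, *Foxl2*, *Amh*, *Amhr2*, *Fst*, *Ptx3* and *Npr2* had 0 counts in all 6 pools, and the most abundant of the other 6 was *Cyp19a1*, at a mean of 64.3 CPM without and 74.6 CPM with quercetin. Of the 3 that were tested, only *Kitl* had an unadjusted p under 0.05 (0.0209, or 0.0519 without control replicate 1 and 0.0635 without control replicate 2), with 71, 64 and 77 counts in controls and 95, 112 and 106 with quercetin and a log2 fold change of 0.59 (SE 0.21). The summed cumulus and granulosa level was higher in each quercetin pool than in each control pool, and the part of this in the results below was not tested. Of 3 blood markers, the hemoglobin genes *Hba-a1* and *Hbb-bs* had 0 counts in all 6 pools, and *Ptprc* had 4, 1 and 0 without and 4, 0 and 5 with quercetin, so that 3 pools were above 3 counts, the number taken as the floor of detection.

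Mitochondrial DNA is a small circle inherited through the oocyte, which holds more copies of it than almost any other cell. It is transcribed from both strands into long precursors, and tRNA sequences that lie between most of the other genes mark where the precursors are cut into separate mRNAs and rRNAs. The proteins it encodes are core subunits of respiratory complexes I, III and IV and of ATP synthase, also called complex V, and its rRNAs and tRNAs serve the ribosomes that translate them inside the organelle. The Smart-seq HT library kit copies RNA from poly(A) tails, so the rRNA and tRNA values describe molecules captured in that way and not the whole amount of these RNAs.

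Transcripts of the 13 protein genes took a smaller share of the counts in quercetin pools than in control pools. They held 2.77%, 2.59% and 2.23% of all counts in controls and 2.09%, 2.00% and 1.86% with quercetin. Every quercetin pool lay below every control pool, and the mean went from 2.53% ± 0.272 to 1.98% ± 0.114 (SD, n = 3). The quercetin mean was thus 78.4% of the control mean. These shares are of unscaled counts. With TMM scaling the 13 genes summed to 26950, 24499 and 22390 CPM in controls and 22119, 21828 and 17764 CPM with quercetin, a narrower separation, with the quercetin mean at 83.6% of the control mean. The 2 rRNAs held 0.315%, 0.347% and 0.208% in controls and 0.178%, 0.195% and 0.214% with quercetin. For the rRNAs the groups overlapped, because control replicate 3 lay below quercetin replicate 3. The 22 tRNA genes together held 0.0276%, 0.0266% and 0.0246% of counts in controls and 0.0204%, 0.0243% and 0.0196% with quercetin, without overlap. On the TMM scale they overlapped, at 269, 252 and 247 CPM in controls and 217, 265 and 187 CPM with quercetin, with quercetin replicate 2 above control replicates 2 and 3. In pools, fewer oocytes with a given amount of these RNAs and less of them per oocyte cannot be told apart.

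**Figure D1:**
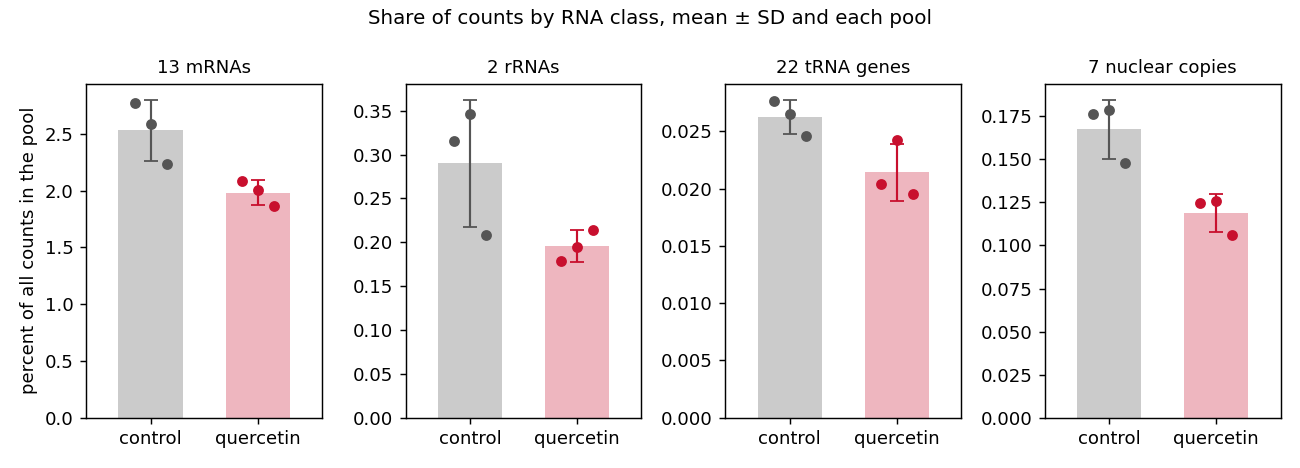
Percent of all counts in a pool, without TMM scaling, on the mRNAs, rRNAs and tRNA genes of mitochondrial DNA and on their 7 nuclear copies on chromosome 1, for 3 control and 3 quercetin pools, as means (bars) with SD (error bars) and single pools (points, replicates 1 to 3 from left to right), each panel having its own axis from 0. The mRNA share lies between 2.23% and 2.77% in controls and between 1.86% and 2.09% with quercetin, and of these unscaled shares only the rRNA panel has overlapping groups.

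Gene by gene, the comparison asked whether any mitochondrial transcript differed between quercetin-treated and control oocytes. The study's criteria, a fold change over 2 and an adjusted p under 0.05, were met by 0 of the 34 tested members and by 0 of all 11842 tested genes (0%) in the quasi-likelihood test of edgeR, adjusted by Benjamini-Hochberg. Adjusted p-values of the members ran from 0.988 to 0.9996 in edgeR's quasi-likelihood test with adjustment by Benjamini-Hochberg. DESeq2, edgeR's likelihood ratio test and limma-voom called 12, 16 and 0 of all genes by the same criteria, and 0 members. Without adjustment, 6 members had a p under 0.05, all lower with quercetin (17.6% of the 34), against 1.89% of all tested genes lower and 2.14% higher. These were *mt-Rnr1*, *mt-Rnr2*, *mt-Co2*, *mt-Nd3*, *mt-Nd4l* and *mt-Nd5*. That count was 3 with DESeq2, 3 without control replicate 1, 1 without control replicate 2 and 3 without quercetin replicate 1. It was 4 without quercetin replicate 3, 3 with the replicate number as a block, and 13 when libraries were scaled by their size only. That scaling put the median log2 fold change of all tested genes at -0.11, against -0.03 with TMM. For DESeq2, the block and scaling by size, the count over all genes is not given here. Of all tested genes, 222 of 12227 were lower at that p without control replicate 1 and 124 of 12186 without control replicate 2. Without quercetin replicate 1 there were 209 of 12374, and without quercetin replicate 3 there were 996 of 12258. With DESeq2, without control replicate 1, and with the block, the 3 were *mt-Rnr1*, *mt-Co2* and *mt-Nd3*, so that *mt-Rnr2*, *mt-Nd4l* and *mt-Nd5* were not among them. Without control replicate 2 only *mt-Nd5* was left, and without quercetin replicate 1 the 3 were *mt-Co2*, *mt-Nd3* and *mt-Nd4*.

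The log2 fold change, quercetin over control, was under 0 in 32 of the 34 members and in 53.6% of all tested genes. Its median was -0.31 over the 13 protein genes and -0.03 over all 11842. Without control replicate 1 the median of the 13 was -0.20. In 10 members (29.4% of the 34), all 3 quercetin pools lay below all 3 control pools in CPM, which was so for 5.17% of all tested genes. Of these, 7 were protein genes and 3 were tRNA genes. Members are cut from shared precursors, so they are not independent of each other. Among the 13 protein genes, control replicate 1 was the highest control pool for 8 and control replicate 2 for 5, while quercetin replicate 3 was the lowest quercetin pool for 11.

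**Figure D2:**
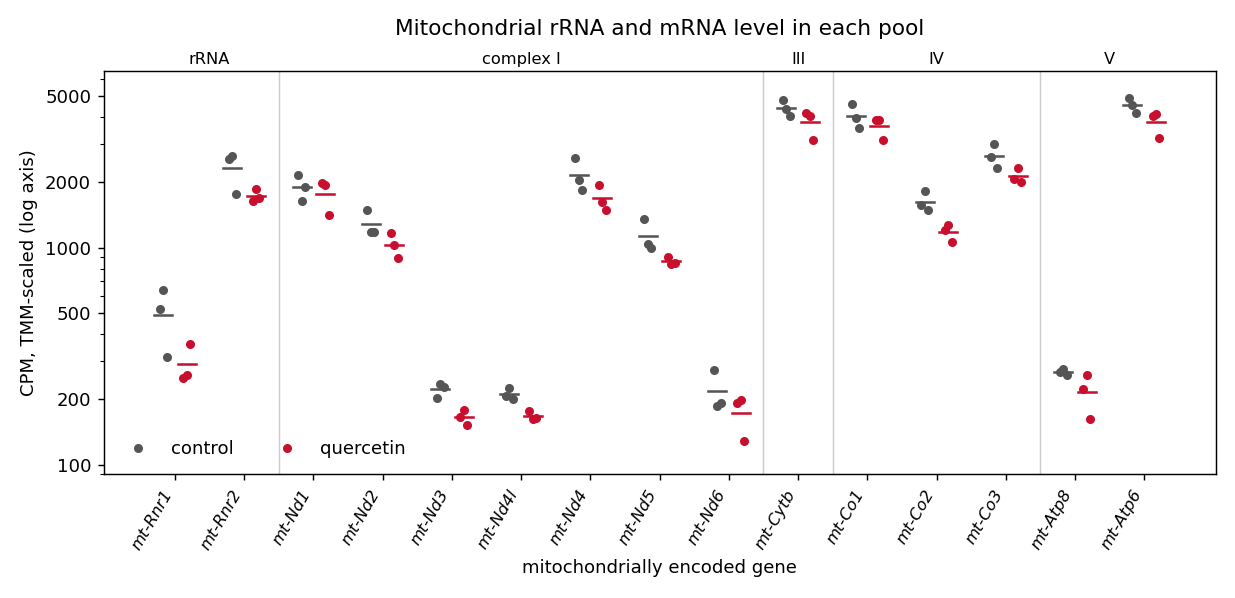
TMM-scaled CPM on a log axis for the 2 rRNAs and 13 protein genes of mitochondrial DNA, grouped by complex, with the 3 control and 3 quercetin pools as points and group means as short lines. For *mt-Co2*, at 1566, 1818 and 1487 CPM in controls and 1202, 1266 and 1059.5 CPM with quercetin, the groups are apart, while for *mt-Nd1* and *mt-Co1* they overlap.

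The rRNAs form the cores of the small and large subunits of the mitochondrial ribosome and are transcribed first from the plus strand. *mt-Rnr1*, the small-subunit rRNA (ENSMUSG00000064337, chrM:70-1024, plus strand), was at 520.2, 638 and 311 CPM in controls and 250.3, 259 and 358 CPM with quercetin. Control replicate 3 lay among the quercetin pools, so the groups overlapped. The log2 fold change was -0.76 (SE 0.26, unadjusted p = 0.0168), the lowest of the 34 members, and its SE was the largest among the 15 rRNA and protein genes. With 1 pool left out the log2 fold change ran from -0.995 to -0.52, the latter without control replicate 2. *mt-Rnr2*, the large-subunit rRNA (ENSMUSG00000064339, chrM:1094-2675, plus strand), was at 2549, 2647 and 1773 CPM in controls and 1642, 1868 and 1684 CPM with quercetin. Here too control replicate 3 lay within the range of the quercetin pools, and the log2 fold change was -0.42 (SE 0.18, unadjusted p = 0.0389), or -0.58 to -0.32 with 1 pool left out.

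Both rRNAs lie next to each other with only *mt-Tv* between them, yet they were counted unequally. The number of *mt-Rnr2* counts for each *mt-Rnr1* count was 4.90, 4.15 and 5.69 in controls and 6.56, 7.21 and 4.70 with quercetin, and the groups overlapped. Relative to the 13 mRNAs, the rRNA counts came to 11.4, 13.4 and 9.31% in controls and 8.55, 9.75 and 11.5% with quercetin. The log2 ratio of rRNA to mRNA counts was -3.15 ± 0.26 in controls and -3.34 ± 0.21 with quercetin (SD, n = 3). The pools overlapped, and with all of them the difference of -0.19 in this ratio was smaller than the SD of either group. It depended on single pools, at -0.06 without control replicate 2, -0.09 without quercetin replicate 1, -0.30 without quercetin replicate 3 and -0.33 without control replicate 3.

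Counts on nuclear rRNA sequence were also lower with quercetin. *CT010467.1*, annotated as rRNA on chromosome 17 (chr17:39846353-39848827, minus strand), had 5833, 6229 and 4662 counts in controls and 2636, 2761 and 2818 with quercetin. *Gm42418*, a noncoding gene on the opposite strand of that place, had 1425, 1386 and 956 counts without quercetin and 498, 503 and 564 with it. Both were lower in all 3 quercetin pools than in all 3 control pools, with log2 fold changes of -1.0 (SE 0.16) and -1.24 (SE 0.20). Neither passed edgeR's quasi-likelihood test after adjustment by Benjamini-Hochberg, with an adjusted p of 0.352 for both. Their reads cannot be told apart where the strand is not used in counting. Their part in the rRNA results was not tested.

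Complex I, NADH dehydrogenase, passes electrons from NADH to ubiquinone and holds 7 of the 13 proteins, all in its membrane arm. Its 7 genes together took 0.849%, 0.692% and 0.651% of counts in controls and 0.616%, 0.547% and 0.534% with quercetin, with no overlap. In TMM-scaled CPM their sums overlapped, since quercetin replicate 1 (6531 CPM) lay just above control replicate 3 (6524 CPM). In 4 of the 7 genes all quercetin pools lay below all control pools in CPM, beside 5.17% of all tested genes. All 7 had log2 fold changes under 0, between -0.42 and -0.10, beside 53.6% of all tested genes. Without control replicate 1, and also without quercetin replicate 3, 6 were lower and 1 higher. *mt-Nd3* (ENSMUSG00000064360, chrM:9459-9806, plus strand), a short gene, was at 203, 234 and 228 CPM in controls and 166, 179 and 152 CPM with quercetin. All its quercetin pools were below its control pools, with a log2 fold change of -0.42 (SE 0.14, unadjusted p = 0.0136). *mt-Nd5* (ENSMUSG00000064367, chrM:11742-13565, plus strand), the longest of the 37 genes, was at 1348, 1037 and 991 CPM in controls and 906, 843 and 850.3 CPM with quercetin. Its quercetin pools were close together and below control replicate 3, its lowest control pool, and the log2 fold change was -0.38 (SE 0.15, unadjusted p = 0.0366), or -0.22 without control replicate 1. *mt-Nd4l* (ENSMUSG00000065947, chrM:9877-10173, plus strand) was at 207, 226 and 201 CPM in controls and 177, 163 and 164 CPM with quercetin. The groups were again apart, and the log2 fold change was -0.33 (SE 0.13, unadjusted p = 0.0317).

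Less distance separated the groups in the other complex I genes. *mt-Nd2* (ENSMUSG00000064345, chrM:3914-4951) was at 1486, 1174 and 1182 CPM in controls and 1166, 1030.2 and 899 CPM with quercetin. These groups did not overlap, but control replicates 2 and 3 and quercetin replicate 1 were almost at the same level, and the log2 fold change was -0.31 (SE 0.16), or -0.19 without control replicate 1. *mt-Nd4* (ENSMUSG00000064363, chrM:10167-11544) was at 2576, 2055 and 1834 CPM in controls and 1947, 1618 and 1496 CPM with quercetin, with a log2 fold change of -0.35 (SE 0.17). Quercetin replicate 1 lay above control replicate 3, and without control replicate 1 the value was -0.20. *mt-Nd6* (ENSMUSG00000064368, chrM:13552-14070), the only protein gene on the minus strand, was at 272, 187 and 193 CPM in controls and 191, 198 and 128 CPM with quercetin, with a log2 fold change of -0.33 (SE 0.22). Control replicate 1 was high and quercetin replicate 3 low, while the other 4 pools were alike, and without these pools in turn the value was -0.13 and -0.15. *mt-Nd1* (ENSMUSG00000064341, chrM:2751-3707) was at 2171, 1644 and 1894 CPM in controls and 1978, 1935 and 1408 CPM with quercetin. The groups overlapped, and its log2 fold change of -0.10 (SE 0.18) was the closest to 0 among the protein genes, and it was 0.04 without quercetin replicate 3 and 0.0063 without control replicate 1, within a range of -0.19 to 0.04 over all pools left out in turn.

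Complex III, which moves electrons from ubiquinol to cytochrome c, has a single subunit encoded here, cytochrome b. *mt-Cytb* (ENSMUSG00000064370, chrM:14145-15288, plus strand) was at 4785, 4348 and 4059 CPM in controls and 4175, 4034 and 3126 CPM with quercetin. Quercetin replicate 1 exceeded control replicate 3, so the groups overlapped, and the log2 fold change was -0.22 (SE 0.16), or -0.10 without quercetin replicate 3. As a share of all counts it was at 0.492%, 0.459% and 0.405% in controls and 0.394%, 0.370% and 0.327% with quercetin, which did not overlap, since this share leaves out the TMM factors.

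Complex IV, cytochrome c oxidase, hands electrons to oxygen, and its 3 mitochondrially encoded subunits form the catalytic core. Together the 3 genes took 0.901%, 0.927% and 0.737% of counts in controls and 0.673%, 0.684% and 0.649% with quercetin, where no quercetin pool reached a control pool. In TMM-scaled CPM quercetin replicate 2 (7454 CPM) lay above control replicate 3 (7380.2 CPM), so that the sums overlapped. *mt-Co2* (ENSMUSG00000064354, chrM:7013-7696, plus strand), whose product binds cytochrome c, was at 1566, 1818 and 1487 CPM in controls and 1202, 1266 and 1059.5 CPM with quercetin, or 1624 ± 173 and 1176 ± 106 CPM (SD, n = 3). The gap between the closest pools of the groups was wider than the range of the quercetin pools, and the log2 fold change was -0.47 (SE 0.14, unadjusted p = 0.0101), the lowest among the protein genes. *mt-Co3* (ENSMUSG00000064358, chrM:8607-9390, plus strand) was at 2611, 2998 and 2335 CPM in controls and 2080, 2327 and 2002 CPM with quercetin, and its log2 fold change was -0.31 (SE 0.15). Control replicate 3 and quercetin replicate 2 were almost equal, though the groups did not overlap. *mt-Co1* (ENSMUSG00000064351, chrM:5328-6872, plus strand), which holds the site where oxygen is reduced, was at 4584, 3964 and 3559 CPM in controls and 3857, 3861 and 3130.5 CPM with quercetin. Its groups overlapped, with a log2 fold change of -0.16 (SE 0.16), which was -0.05 without control replicate 1 and -0.06 without quercetin replicate 3.

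Complex V makes ATP, and the 2 subunits encoded here belong to its membrane part. Their genes took 0.528%, 0.508% and 0.442% of counts in controls and 0.403%, 0.401% and 0.351% with quercetin, apart on this scale and in TMM-scaled CPM. *mt-Atp6* (ENSMUSG00000064357, chrM:7927-8607, plus strand), whose product helps to form the proton channel, was at 4873, 4539 and 4169 CPM in controls and 4051, 4115 and 3186 CPM with quercetin. The groups did not overlap, quercetin replicate 3 was the lowest pool, and the log2 fold change was -0.26 (SE 0.15), or -0.15 without that pool. *mt-Atp8* (ENSMUSG00000064356, chrM:7766-7969, plus strand), a small membrane subunit of the enzyme, was at 266, 274 and 258 CPM in controls and 222, 259.5 and 163 CPM with quercetin. Control pools were close together while quercetin pools were spread, quercetin replicate 2 lay above control replicate 3, and the log2 fold change was -0.31 (SE 0.18), or -0.14 without quercetin replicate 3 and -0.46 without quercetin replicate 2.

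Across complexes the group means of the share of counts stood in a similar relation. Quercetin means were 77.4% of control means for complex I, 80.5% for complex III, 78.2% for complex IV and 78.2% for complex V. With TMM scaling they were 82.4%, 85.9%, 83.4% and 83.4%. Differences between complexes were not tested. Within the mRNA pool, each protein gene was also expressed as a percent of the counts on all 13. *mt-Co1* made up 17.01, 16.2 and 15.9% in controls and 17.4, 17.7 and 17.6% with quercetin. It was the only one of the 13 whose groups did not overlap on this scale, being higher in all 3 quercetin pools. In TMM-scaled CPM, another scale, 612 of all 11842 tested genes were lower and 642 higher without overlap. Being 1 gene of 13, it is not read as a result about *mt-Co1*. *mt-Co2* made up 5.81, 7.42 and 6.64% in controls and 5.43, 5.80 and 5.96% with quercetin, with control replicate 1 inside the quercetin range. In the other 11 the mean share differed by -0.50 to 0.84 percentage points, quercetin minus control, with overlapping pools.

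Levels between genes were compared in TMM-scaled CPM per kb of annotated length in control pools, as mean ± SD of 3 pools. *mt-Atp6* was at 6648 ± 517 CPM per kb, above all other members in each control pool. Next came *mt-Cytb* at 3844 ± 319.8 and *mt-Co3* at 3377 ± 425 CPM per kb, which overlapped each other and lay above *mt-Co1* at 2612 ± 334 CPM per kb. From *mt-Co1* down to *mt-Nd2* at 1234 ± 171 CPM per kb, each gene overlapped the next, in the order *mt-Co1*, *mt-Co2*, *mt-Nd1*, *mt-Nd4*, *mt-Rnr2*, *mt-Atp8* and *mt-Nd2*. Lower levels were found for *mt-Nd4l* at 712 ± 44.6, *mt-Nd3* at 637 ± 48.7, *mt-Nd5* at 617 ± 107, *mt-Rnr1* at 513 ± 173 and *mt-Nd6* at 418 ± 91.9 CPM per kb. Of the tRNA genes, *mt-Tl1* alone lay between *mt-Nd2* and *mt-Nd4l*. In quercetin pools *mt-Atp6* at 5557 ± 762 CPM per kb again had the highest mean and *mt-Nd6* at 333 ± 74.6 the lowest among the protein genes. The rRNAs, the most abundant RNAs of a mitochondrion when all RNA is measured, are thus in the middle and low range of these libraries. Across the 13 protein genes, log2 counts per kb in controls correlated with log2 length by r = 0.291 and with GC content by r = 0.347, as a description over 13 genes that are not independent replicates. By counts summed over the 6 pools, *mt-Atp6* ranked 30 and *mt-Co1* 35 among all 53465 genes, and *mt-Nd6* ranked 935. Reads assigned to nuclear copies are not included in these levels.

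Among the members, 2 pairs of protein genes are read from shared mRNAs and overlap in sequence. The last 43 bases of *mt-Atp8*, which are 21.1% of its length, are also the first 43 of *mt-Atp6* in another reading frame, and reads there cannot be assigned to one gene. The end of *mt-Atp8* and the start of *mt-Atp6*, from the GENCODE M21 transcripts on GRCm38, show this stretch in capitals, with *mt-Atp8* from chrM:7912-7969 and *mt-Atp6* from chrM:7927-7984, plus strand.
mt-Atp8: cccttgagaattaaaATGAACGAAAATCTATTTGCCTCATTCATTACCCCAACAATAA
mt-Atp6: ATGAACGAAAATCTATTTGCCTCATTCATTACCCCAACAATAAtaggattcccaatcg
The other pair shares 7 bases, shown in the same way for the end of *mt-Nd4l* (chrM:10144-10173, plus strand) and the start of *mt-Nd4* (chrM:10167-10196, plus strand).
mt-Nd4l: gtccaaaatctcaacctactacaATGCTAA
mt-Nd4: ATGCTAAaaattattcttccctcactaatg
Although each pair shares an mRNA, the genes of a pair were not counted evenly along it. *mt-Atp6* had 5.48, 4.96 and 4.85 times the counts per kb of *mt-Atp8* in controls and 5.45, 4.75 and 5.86 times with quercetin. For *mt-Nd4* over *mt-Nd4l* the ratio of counts per kb was 2.68, 1.96 and 1.97 in controls and 2.38, 2.14 and 1.96 with quercetin. In both pairs the downstream gene was counted more densely in all 6 pools, and the ratios overlapped between groups. Distance from the poly(A) tail, gene length and how reads over both genes were assigned differ together in these pairs, and their part was not tested.

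The 3′ ends of the mRNAs differ in one feature that the choice of members did not use. Of the protein genes, 10 end in a complete stop codon, and 3 end in a lone T that the poly(A) tail turns into a stop codon after the precursor is cut. The last 20 bases of those 3, with the lone T in capitals, are shown beside *mt-Co2*, which ends in a whole stop codon (capitals). Their positions, all on the plus strand of GRCm38, are chrM:9371-9390 for *mt-Co3*, chrM:11525-11544 for *mt-Nd4*, chrM:15269-15288 for *mt-Cytb* and chrM:7677-7696 for *mt-Co2*.
mt-Co3: catttattgatgaggatctT
mt-Nd4: aattacaggcctgacaataT
mt-Cytb: aatactaaaattatatccaT
mt-Co2: gatctgcttcaataattTAA
Log2 fold changes of the 3 genes without a full stop codon, -0.31, -0.35 and -0.22, lay within the range of the 10 with one, -0.47 to -0.10.

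Part of the mitochondrial genome has been copied into nuclear DNA, and where the sequence is the same, reads from a copy and from the mitochondrial gene cannot be told apart. In the annotation, 7 pseudogenes stand side by side on chromosome 1 (chr1:24611535-24616197, minus strand, GRCm38) and repeat, in order, sequence from *mt-Co1* to *mt-Nd4*. Of the 7, 5 are identical to their mitochondrial gene over the bases that both annotations hold. Of the 31-base words of *mt-Co2*, *mt-Atp6*, *mt-Co3*, *mt-Nd4l* and *mt-Nd3*, 100%, 99.5%, 99.9%, 98.9% and 98.1% also occur in nuclear transcripts, against 6.55% for *mt-Cytb* and 0% for *mt-Nd1*. In between are *mt-Co1* at 63.9%, *mt-Nd4* at 62.8%, *mt-Nd5* at 16.8%, *mt-Nd2* at 13.5%, *mt-Atp8* at 7.47% and *mt-Nd6* at 7.36%. Only annotated nuclear transcripts were compared, so the percents can be too low where a copy lies outside them. How reads that match both places were counted is not stated, and the values of all genes with such words are uncertain to that extent.

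The copies were counted in every pool and, like the mitochondrial genes, were lower with quercetin. Since reads of identical sequence cannot be told apart, this is not a result separate from that of the mitochondrial genes. Together they held 0.176%, 0.179% and 0.148% of counts in controls and 0.125%, 0.126% and 0.106% with quercetin, with no overlap here or in TMM-scaled CPM. *Gm10925*, the copy of *mt-Atp6*, had 5708, 4957 and 4929 counts in controls and 4134, 4748 and 3076 with quercetin. *Gm28437*, the copy of *mt-Co3*, had 3350, 3500 and 3061 without and 2209, 3062 and 2117 with quercetin, and *Gm28661*, the copy of *mt-Co2*, had 1935, 2156 and 1786 without and 1312, 1551 and 1066 with quercetin. In these 3, the most counted copies, each quercetin pool was below each control pool on the CPM scale, as in 5.17% of all tested genes. Their log2 fold changes were -0.35 (SE 0.17), -0.40 (SE 0.16) and -0.56 (SE 0.17), where *Gm10925* was at -0.20 without quercetin replicate 3. The 3 copies had 12.8%, 14.0% and 13.5% of the counts of their mitochondrial gene, over all 6 pools. Adding each copy to its mitochondrial gene before the fit gave a median log2 fold change of -0.32 for the 13 protein genes, and again 6 members with an unadjusted p under 0.05. Among protein genes with under 20% of their words in nuclear genes, all 6 had log2 fold changes under 0, beside 53.6% of all tested genes. Their median was -0.31, or -0.17 without control replicate 1 and -0.15 without quercetin replicate 3. In each of those 2 fits, 5 were lower and 1 higher. For the 5 protein genes with over 90% of their words in nuclear genes the median was -0.33. The part of the copies in these values was not tested.

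One copy took a much larger part than the others. *Gm28438*, the copy of *mt-Nd3*, which was singled out after its values were seen, had 741, 831 and 824 counts in controls and 618, 661 and 626 with quercetin. These were 41.4% ± 1.07 of the *mt-Nd3* counts in controls and 45.3% ± 4.15 with quercetin (SD, n = 3). Over the 345 bases that the annotated copy shares with *mt-Nd3*, the 2 differ at 1 base, T3C, with the mitochondrial base first and positions counted from the first base of *mt-Nd3*. The first 23 bases of both show it in capitals, *mt-Nd3* at chrM:9459-9481 on the plus strand and *Gm28438* at chr1:24613097-24613119 on the minus strand.
mt-Nd3: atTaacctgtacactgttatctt
Gm28438: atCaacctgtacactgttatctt
The mice were Kunming, while the reference is of another strain, and whether their mitochondrial DNA carries the reference base there was not tested. Like *mt-Nd3*, *Gm28438* was lower in all 3 quercetin pools than in all 3 control pools in CPM.

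The 22 tRNA genes were counted far less than the mRNAs, and 20 had under 1000 counts over the 6 pools. *mt-Tl1*, a leucine tRNA gene, had the most, with 649, 464 and 492 counts in controls and 487, 644 and 401 with quercetin. Its groups overlapped widely, and the log2 fold change was -0.04 (SE 0.20), or 0.10 without either control replicate 1 or quercetin replicate 3. The gene lies with no base between it and *mt-Rnr2* upstream or *mt-Nd1* downstream, and it is shown whole (chrM:2676-2750, plus strand) because it had the most counts of all tRNA genes.
mt-Tl1: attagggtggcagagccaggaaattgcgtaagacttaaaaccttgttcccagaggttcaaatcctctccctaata
Per kb it was at 818 ± 133 CPM in controls and 795 ± 157 CPM with quercetin. Its counts per kb were 0.428, 0.433 and 0.373 times those of *mt-Nd1* in controls and 0.393, 0.466 and 0.428 times with quercetin. In no pool did it reach its neighbours. A read over a tRNA gene can come from an uncut precursor, so these counts cannot be told apart from the ends of the genes beside it.

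Next in counts were the arginine tRNA gene *mt-Tr*, with 176, 197 and 220 counts in controls and 148, 156 and 168 with quercetin, and the lysine tRNA gene *mt-Tk*, with 140, 157 and 171 without and 119, 186 and 122 with it. Both groups of pools overlapped on the CPM scale, and the log2 fold changes were -0.30 (SE 0.20) and -0.11 (SE 0.22, or -0.29 to -0.02 with 1 pool left out). Beside 5.17% of all tested genes, 3 of the 19 tested tRNA genes had groups apart, with all quercetin pools lower. These were the methionine tRNA gene *mt-Tm* (150, 143 and 152 counts in controls and 96, 133 and 94 with quercetin), the histidine tRNA gene *mt-Th* (56, 53 and 50 without and 39, 51 and 33 with quercetin) and the proline tRNA gene *mt-Tp* (50, 48 and 40 without and 32, 41 and 27 with quercetin), compared as CPM. Their log2 fold changes were -0.44 (SE 0.21), -0.35 (SE 0.26) and -0.44 (SE 0.28), and *mt-Th* was at -0.21 without quercetin replicate 3. Of the 19 tested tRNA genes, 0 had an unadjusted p under 0.05 in edgeR's quasi-likelihood test, DESeq2, edgeR's likelihood ratio test or limma-voom. *mt-Tm* had one in the quasi-likelihood test with scaling by library size only, and also without quercetin replicate 2. In the latter fit 180 of all 12258 genes were lower at that p. With all pools 17 of the 19 had log2 fold changes under 0, beside 53.6% of all tested genes, with a median of -0.28. Without quercetin replicate 3 it was 13 of 19, beside 52.3% of all genes, with a median of -0.16. Without control replicate 1 it was 14 of 19, beside 52.5% of all genes.

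Among the other tested tRNA genes, *mt-Tq*, *mt-Td*, *mt-Tt*, *mt-Tl2*, *mt-Ts1*, *mt-Tg* and *mt-Ti* had log2 fold changes from -0.36 to -0.24 with SE of 0.22 to 0.30, and from -0.54 to -0.12 with 1 pool left out. *mt-Te*, *mt-Tc* and *mt-Tn* followed at -0.23, -0.22 and -0.17, each under 1 SE from 0, and were above 0 without control replicate 1 (*mt-Te*, 0.0061) or quercetin replicate 3 (*mt-Tc*, 0.10, and *mt-Tn*, 0.07). The smallest differences were those of the alanine, valine and tryptophan tRNA genes *mt-Ta*, *mt-Tv* and *mt-Tw*, at -0.0021, 0.0024 and 0.04 with SE of 0.33, 0.30 and 0.34, and the sign of each changed with the scaling or the pools used. Some neighbouring tRNA genes, picked out after their values were seen, were alike across pools. *mt-Tw*, *mt-Ta*, *mt-Tn* and *mt-Tc*, which lie together at chrM:4950-5257 on both strands, each had their highest CPM in quercetin replicate 2 and their lowest in quercetin replicate 3. *mt-Tk*, which lies elsewhere, had the same highest and lowest pools, so this is not particular to the neighbours. *mt-Tw* itself had 99, 61 and 96 counts in controls and 84, 125 and 49 with quercetin.

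The filter on low counts left out 3 tRNA genes. *mt-Tf*, the phenylalanine tRNA gene at the start of the plus-strand precursor, had 2, 2 and 2 counts in controls and 2, 3 and 2 with quercetin. *mt-Ts2* had 1 count in each of the 6 pools, so both were at or under the floor of 3 counts. *mt-Ty* was above that floor in every pool, with 9, 9 and 9 counts without and 6, 12 and 4 with quercetin. Tested without the filter, these genes were not among the 5 members that then had an unadjusted p under 0.05. The reads come from amplified cDNA and carry no molecular identifiers, so they are not independent molecules and the floor covers counting error only.

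By strand, 9 of the 37 genes are on the minus strand, namely *mt-Nd6* and 8 tRNA genes. These 9 took 0.0345%, 0.0254% and 0.0243% of counts in controls and 0.0224%, 0.0237% and 0.0170% with quercetin, beside the 12 plus-strand protein genes at 2.74%, 2.57% and 2.22% without and 2.07%, 1.98% and 1.85% with quercetin. Quercetin means were 75.04% and 78.4% of control means. In TMM-scaled CPM they were 80.4% and 83.6%, and the minus-strand sums overlapped between groups. The 8 tested minus-strand genes had a median log2 fold change of -0.26 (-0.48 to -0.11 with 1 pool left out), and the 12 plus-strand protein genes -0.31. Among tRNA genes the median was -0.23 for 7 tested on the minus strand (-0.52 to -0.10 with 1 pool left out) and -0.29 for 12 tested on the plus strand. *mt-Nd6* runs against *mt-Nd5* and shares 14 bases with it. *mt-Nd5* had 1.41, 1.58 and 1.46 times its counts per kb in controls and 1.35, 1.21 and 1.89 times with quercetin. Both strands are transcribed over their whole length and the counting is not stated to use strand, so a minus-strand gene and plus-strand RNA that runs across it cannot be told apart.

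**Figure D3:**
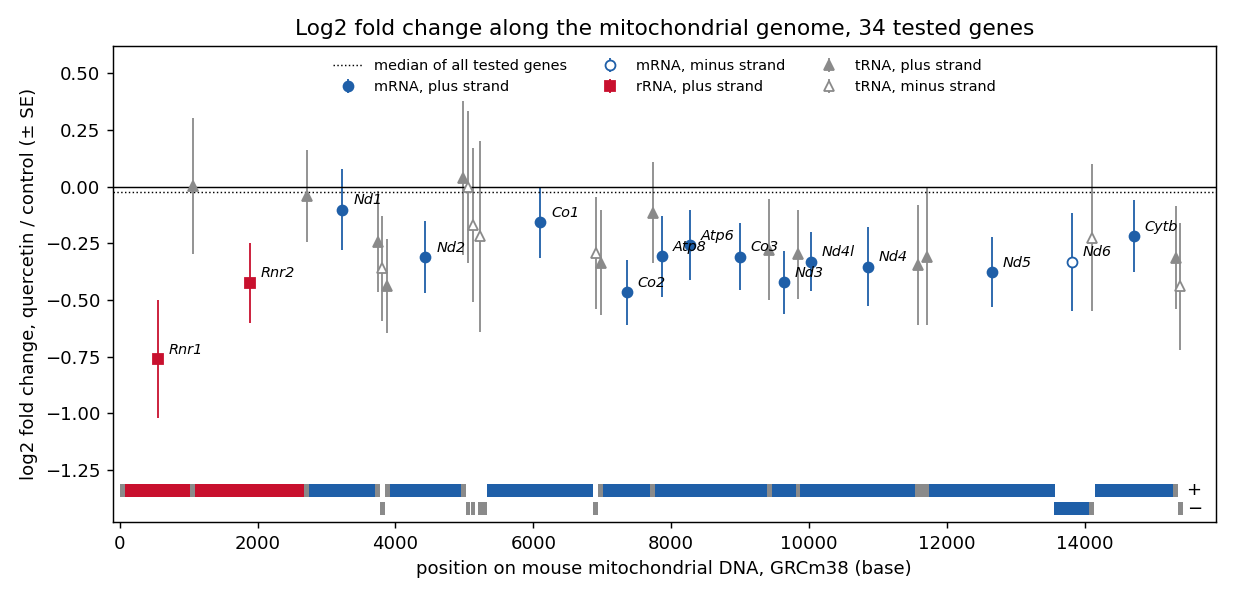
Log2 fold change, quercetin over control, of the 34 tested members against their position on mitochondrial DNA (GRCm38), with edgeR's estimates as symbols (filled for the plus and open for the minus strand), SE as error bars, the median of all tested genes (-0.03) as a dotted line, and the 37 genes by strand as bars at the bottom. Of the 34, 32 lie below 0, from -0.76 for *mt-Rnr1* upward, and most tRNA genes have wider errors than the protein genes.

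Nuclear genes that transcribe mitochondrial DNA and process its RNA were lower and higher in near equal numbers. Of 45 listed genes, 44 were matched (*Prorp* was not) and 37 were tested, 18 lower and 19 higher, with a median log2 fold change of 0.02, or -0.05 to 0.08 with 1 pool left out. Of 15 tested genes for transcription and the nucleoid, 8 were lower and 7 higher (median -0.05, or -0.29 to 0.11 with 1 pool left out), and of 22 for RNA processing, stability and decay, 10 were lower and 12 higher (median 0.03, or -0.05 to 0.10). An unadjusted p under 0.05 was found for 2 higher and 0 lower in edgeR's quasi-likelihood test, beside 2.14% of all tested genes higher and 1.89% lower. There were 1 higher and 0 lower with DESeq2, 1 higher and 1 lower with edgeR's likelihood ratio test, and 2 higher and 1 lower with limma-voom, and 0 met the study's criteria in any of these. Without quercetin replicate 3 the quasi-likelihood test gave 7 higher and 4 lower of 37. Of all 12258 genes tested there, 567 were higher and 996 lower at that p. It gave 0 of 38 without control replicate 2, beside 117 higher and 124 lower of all 12186. Without quercetin replicate 1 it gave 0 of 38, beside 169 higher and 209 lower of all 12374. *Fastkd2*, which helps to process and stabilise mitochondrial RNA, had 281, 142 and 224 counts in controls and 399, 336 and 315 with quercetin. Its quercetin pools were all above its control pools, with a log2 fold change of 0.75 (SE 0.26, unadjusted p = 0.0178, or 0.0600 without control replicate 2 and 0.0715 without quercetin replicate 1). *Angel2*, a phosphatase of RNA ends, had 6052, 4857 and 5284 counts in controls and 6466, 6952 and 6158 with quercetin, also apart, with a log2 fold change of 0.31 (SE 0.13, unadjusted p = 0.0455). Its unadjusted p was 0.05 or more without control replicate 2, control replicate 3, quercetin replicate 1 or quercetin replicate 2, at 0.143, 0.111, 0.146 and 0.0764. *Fastkd1*, of the same family as *Fastkd2*, followed at 0.41 (SE 0.19). In the other direction *Fastkd5*, needed to cut precursors at sites without a tRNA, had 77, 88 and 73 counts in controls and 42, 23 and 74 with quercetin. Quercetin replicate 3 was at the control level, and the log2 fold change was -0.73 (SE 0.40), or -0.38 without quercetin replicate 2 and -1.24 without quercetin replicate 3. *Pde12*, a nuclease that trims poly(A) from mitochondrial RNA, and *Tfb1m*, which methylates *mt-Rnr1*, were at -0.42 (SE 0.24) and -0.38 (SE 0.24), with overlapping pools. *Tfb1m* was at -0.20 without quercetin replicate 1 and -0.60 without quercetin replicate 3.

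The nuclear subunits of the same complexes were compared as counts of genes by direction. Of 79 such genes, 64 were tested, 47 lower (73.4%, beside 53.6% of all tested genes) and 17 higher, with a median log2 fold change of -0.20. This direction depended on single pools. Control replicate 2 had the highest CPM of the 6 pools in 39 of the 64 genes (2107 of all 11842) and quercetin replicate 1 the lowest in 31 (1994 of all). Without control replicate 2, 28 were lower and 36 higher, with a median of 0.06, and without quercetin replicate 1, 41 of 66 tested were lower and 25 higher, with a median of -0.06. The median was -0.39 without control replicate 1 and -0.40 without quercetin replicate 2. By complex, with all pools, the medians were -0.12 over 30 genes of complex I, -0.40 over 9 of complex III, -0.28 over 10 of complex IV and -0.28 over 15 of complex V, and without control replicate 2 they were 0.07, 0.09, -0.10 and 0.09. For the mitochondrially encoded subunits of these complexes the medians, or the single value for complex III, were -0.33, -0.22, -0.31 and -0.28, and without control replicate 2 -0.38, -0.23, -0.21 and -0.27. That of complex I was -0.20 without control replicate 1, and those of complexes III and V were -0.10 and -0.14 without quercetin replicate 3. Of the 64, 0 had an unadjusted p under 0.05 in edgeR's quasi-likelihood test or with DESeq2, edgeR's likelihood ratio test or limma-voom. With 1 pool left out, 0 to 3 of the 64 to 66 tested had one in the quasi-likelihood test. Without control replicate 1 there were 2 lower and 1 higher of 66, beside 222 lower and 259 higher of all 12227 genes. Without quercetin replicate 2 there were 2 lower of 65, beside 180 lower and 144 higher of all 12258. Without quercetin replicate 3 there was 1 lower of 66, beside 996 lower and 567 higher of all 12258. At 5 CPM or more, the smallest p among lower genes belonged to *Atp5h*, with 84, 109 and 76 counts in controls and 40, 87 and 56 with quercetin, followed by *Uqcrq* and *Cox4i1*. Their log2 fold changes were -0.55 (SE 0.31), -0.61 (SE 0.38) and -0.49 (SE 0.31), and the pools of all 3 overlapped. Without control replicate 2, their highest control pool, they were -0.35, -0.17 and -0.10. *Atp5h* was at -0.36 without quercetin replicate 1 and -0.83 without quercetin replicate 2. Without control replicate 1, *Uqcrq* and *Cox4i1* were at -0.90 and -0.70. Among higher genes *Atp5b*, the catalytic beta subunit of complex V, had 3280, 2920 and 3387 counts in controls and 3518, 3729 and 3489 with quercetin, with a log2 fold change of 0.20 (SE 0.12) and quercetin pools above control pools in CPM. *Atp5g3* and *Atp5a1* were at 0.28 (SE 0.29) and 0.22 (SE 0.23), both with overlapping pools, and ran from 0.08 to 0.51 and from 0.03 to 0.42 with 1 pool left out. The relation between nuclear and mitochondrial subunits of a complex was not tested.

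The number of pools, 3 a group, sets the precision of these comparisons. A p that misses the threshold does not show that the groups were equal.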

How the data were processed

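Counts of reads, as deposited by the authors, cover 53465 Ensembl identifiers in 6 pools of M II oocytes and are raw whole numbers for single pools. Sample labels gave group and replicate. The study's methods name Hisat2 with GRCm38.91 for alignment, whereas the submitters' processing notes name CASAVA 1.8, TopHat2 2.0.6 and mm10/GRCm38. Neither states how strand or reads matching several places were handled in counting. Symbols were found for 53274 identifiers. Coordinates and sequences are those of GENCODE M21 on GRCm38, and protein sequences were not used here.

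After filterByExpr of edgeR 4.0.16 with a minimum count of 10, 11842 genes were kept, scaled by TMM, and fitted with glmQLFit and group as the only term. Groups were compared by glmQLFTest, the quasi-likelihood test, under R 4.3.3. Benjamini-Hochberg adjustment ran over all these genes, and the study's thresholds were an adjusted p of 0.05 and a fold change of 2. SE was taken as the log2 fold change over the square root of F. The fit was tested on simulated data. Pools held 7880467 to 9938743 counts, so that the floor of 3 counts is 0.302 to 0.381 CPM without TMM. Sequence shared with nuclear genes was counted in words of 31 bases. Pools of the same group were checked against each other for duplicated data, and none was found. Python 3.11.15 with pandas 2.3.3, numpy 2.4.6 and matplotlib 3.10.9 made the summaries and plots.

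The members and lists were chosen with earlier results of these data known, so no list was tested as a whole. All protein and rRNA genes were named. tRNA genes were named if they passed the filter or were among the 3 most counted, and the 3 that did not pass were named so that every member is accounted for. From the machinery list and the nuclear subunits came up to 3 tested genes in each direction, those of smallest unadjusted p at 5 CPM or more, and from the nuclear copies the 3 most counted. *CT010467.1*, *Gm42418*, *Gm28438*, *Kitl* and *Zp2* were added after their values were seen. Other tests were limma-voom (limma 3.58.1), DESeq2 1.42.0 and edgeR's likelihood ratio test. Other settings were DESeq2's size factors, library size only, TMM without the members, no filter, at least 10 counts in every pool, each pool left out, and the replicate number as a block. Chosen after seeing the data were the addition of nuclear copies to their mitochondrial genes, the adjusted p without the fold change, the share of counts on TMM-scaled library sizes, and the lists of nuclear genes with each pool left out.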

Additional observations from a re-analysis of the deposited data

How the results depend on the processing

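No alternative called a member at an adjusted p under 0.05, with or without the fold change criterion. Members with an unadjusted p under 0.05 numbered 6 in the quasi-likelihood test, where 1.89% of all genes were lower at that p. There were 3 with DESeq2, 4 with edgeR's likelihood ratio test and 6 with limma-voom, for which the count over all genes is not given here. They numbered 13 with scaling by library size only, and 1 to 6 when a pool was left out (1 without control replicate 2). All were lower with quercetin. Of all genes tested without control replicate 2, 124 of 12186 were lower at that p. Without quercetin replicate 3, which gave 4 members, 996 of 12258 genes were lower at that p. Scaling by library size put the median of all tested genes at -0.11, against -0.03 with TMM. Between 27 and 34 of the 34 members had log2 fold changes under 0 under every alternative that tested the same 34. The median of the 13 protein genes ran from -0.37 to -0.20 without 1 pool, the latter without control replicate 1. With 1 pool left out, the difference in their share of counts ran from -0.695 to -0.427 percentage points (with all pools, -0.547, or -0.404 on TMM-scaled library sizes) and that in the log2 ratio of rRNA to mRNA from -0.33 to -0.063. Also with 1 pool left out, the median of the nuclear subunits ran from -0.40 to 0.0595 (with all pools, -0.20) and that of the machinery from -0.047 to 0.080 (with all pools, 0.019), so that both changed sign.

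Of 544 log2 fold changes of the 34 members under alternatives, 521 kept their sign and 23, in 8 genes, changed it, and the cause was not tested. For *mt-Tv*, the value was -0.0073 with limma-voom, -0.088 by library size, -0.0034 with at least 10 counts in every pool, and -0.17 to 0.13 without 1 pool. *mt-Tw* was at -0.026 with limma-voom, -0.067 by library size, and -0.26 to 0.32 without 1 pool. *mt-Ta* was at 0.015 with DESeq2 and also with its size factors in edgeR, 0.0057 without a filter, and -0.29 to 0.26 without 1 pool. Leaving out 1 pool gave -0.18 to 0.10 for *mt-Tl1*, -0.19 to 0.042 for *mt-Nd1*, -0.52 to 0.074 for *mt-Tn*, -0.61 to 0.098 for *mt-Tc* and -0.42 to 0.0061 for *mt-Te*. With the replicate number as a block, 3 members had an unadjusted p under 0.05 (*mt-Rnr1*, *mt-Co2* and *mt-Nd3*) and 0 were called, and *mt-Tv* and *mt-Tw* were at -0.011 and -0.018. Deviations of the pools numbered 1 correlated across genes by r = 0.314, the highest of all pairs, but those numbered 2 and 3 by 0.0844 and -0.0336, and control replicate 2 was closer to quercetin replicate 3 (r = 0.198), so the numbers were not taken as pairs. Of the 22 tRNA genes, 20 had under 1000 counts in all.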
